A study of Rattus norvegicus with 15 samples.

Results

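The genes described here are 49 genes whose products build the mitotic spindle, condense and separate the chromosomes or drive entry into and exit from mitosis. They were chosen by name for that role, by a rule that uses no measured value but was set with earlier results of these data known, and 48 of them were among the 11574 genes of the count table. The remaining gene, Ccnb2, was not analysed here. H9c2 is a single myoblast line derived from embryonic rat heart that fuses into myotubes when serum is withdrawn, and the study asked how time in culture and all-trans retinoic acid (RA), the vitamin A metabolite that binds nuclear RA receptors, changed its transcripts. The labels give all 15 cultures as WT myoblasts and name H9c2 in every title, whereas the number in the cell line field runs on from one sample to the next after day 0, and all were taken as H9c2. They were expanded in medium with 10% fetal bovine serum, which was lowered to 1% for differentiation. The groups, of 3 cultures each, were T0 (day 0, without RA), T7-RA and T14-RA (days 7 and 14 without RA), and T7+RA and T14+RA (days 7 and 14 with 1 µM RA, dissolved in DMSO and added daily). Whether the cultures without RA received DMSO is not given in the sources used here, and time in culture and time in low serum cannot be told apart.

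Mitosis is started by cyclin-dependent kinase 1 bound to A- and B-type cyclins. The spindle checkpoint then holds the anaphase promoting complex in check until every kinetochore is attached to microtubules, after which separase cuts cohesin and the midzone and contractile ring divide the cell. Transcripts of most of these genes peak late in the cell cycle and are low in cells that have left it, as myoblasts do before they fuse, so that in a bulk culture fewer dividing cells and less RNA per dividing cell cannot be told apart.

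A shared sequence feature that the choice of genes did not use was looked for in their promoters. RefSeq promoter windows of the GRCr8 build, from 250 bases before to 50 bases after the gene start, were at hand for 42 of the 48 genes, the other 6 being Aurkb, Ccna2, Incenp, Racgap1, Tpx2 and Ube2c. Both strands were searched for the CCAAT box (CCAAT), the cell cycle homology region (TTTGAA or TTCGAA) and an E2F core (TTCCCGC or TTTCCCG or TTCGCGC or TTTGGCG). At least 1 CCAAT box was found in 31 of 42 windows (73.8%), against 37.7% of all 27457 promoters and 38.0% of the 8566 other counted genes with a window. The cell cycle homology region was also found in 31 of 42 (73.8%), against 19.5% of all promoters and 13.3% of the other counted genes. Both together were present in 25 of 42 (59.5%), against 7.83% and 5.36%, whereas an E2F core was present in 8 of 42, against 9.67% of all promoters and 17.1% of the other counted genes. These matches describe letters in a window and do not show binding. The 100 bases before the start are printed 5′ to 3′ for 3 genes that were lower by day 7 (Prc1, Ncapd2 and Anln) and 3 whose decline came in the second week (Cdk1, Aspm and Ncapg), since the motifs occur in both kinds. Within these 100 bases, 19 of the 42 genes (45.2%) had the cell cycle homology region and 14 (33.3%) had both motifs. Among all promoters the shares were 6.1% and 1.12%. The printed genes are examples and show the motifs more often than the 42 do. Capitals mark the CCAAT box, which reads ATTGG on the other strand, and the cell cycle homology region, which reads TTCAAA on the other strand. In the windows of Cdca8 and Mki67 the 2 motifs share bases. The Anln stretch holds 2 copies of the latter in opposite orientation and no CCAAT box.
Prc1 (chr1:143659381-143659480, plus strand): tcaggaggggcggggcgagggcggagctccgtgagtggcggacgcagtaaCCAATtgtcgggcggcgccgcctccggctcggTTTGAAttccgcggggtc
Ncapd2 (chr4:159677939-159678038, minus strand): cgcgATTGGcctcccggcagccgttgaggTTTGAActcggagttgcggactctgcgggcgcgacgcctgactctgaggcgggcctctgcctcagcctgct
Anln (chr8:29197514-29197613, minus strand): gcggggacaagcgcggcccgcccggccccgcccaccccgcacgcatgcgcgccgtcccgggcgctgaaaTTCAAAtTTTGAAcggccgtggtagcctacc
Cdk1 (chr20:19265193-19265292, plus strand): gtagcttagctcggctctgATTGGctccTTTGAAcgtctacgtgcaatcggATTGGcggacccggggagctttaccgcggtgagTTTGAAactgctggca
Aspm (chr13:53625484-53625583, plus strand): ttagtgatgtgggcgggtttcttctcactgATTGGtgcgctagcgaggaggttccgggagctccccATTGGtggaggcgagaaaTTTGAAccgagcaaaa
Ncapg (chr14:69645446-69645545, minus strand): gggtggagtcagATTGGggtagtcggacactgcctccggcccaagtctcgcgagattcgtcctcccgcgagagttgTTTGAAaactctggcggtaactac

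The libraries held 508397 to 1030820 counts, of which the 48 genes took 1071 to 4297. Summed over the 15 libraries, single genes had between 131 counts (Spc24) and 3679 counts (Mki67). Levels are given as CPM, counts scaled to a common library total, after TMM scaling, in which 1 count was worth 0.965 to 2.10 CPM. Changes are log2 changes from edgeR's quasi-likelihood test, with p-values adjusted over all 11574 genes by the Benjamini-Hochberg method. Their standard error (SE) was worked back from that test, as the size of the log2 change over the square root of the F statistic. A gene is said to have risen or fallen at an adjusted p under 0.001. Markers bore on the identity of the cultures as follows. Of 8 myotube markers 7 were counted, and their summed level went from 110.4 to 176 CPM at T0 to between 7574 and 8155 CPM in T14-RA and between 3279 and 3765 CPM in T14+RA. The labels give the tissue as heart, and of 7 cardiomyocyte markers 2 were counted, at 11.04 to 38.4 CPM summed in any culture, 1 of 4 endothelial markers was counted, at 0 to 6.29 CPM, and none of the 4 blood and macrophage markers. Of 7 myoblast markers 5 were counted, at 4863 to 5445 CPM summed at T0 and 3176 to 3310 CPM in T14-RA, where 2 had fallen and 2 had risen against T0. Smooth muscle markers (4 of 4 counted) went from between 15231 and 16810 CPM at T0 to between 3334 and 3443 CPM in T14-RA, where 3 had fallen, and fibroblast markers (3 of 5 counted) from between 24632 and 37564 CPM to between 20405 and 20620 CPM, where 1 had fallen and 1 had risen. The part of these shifts in the results below was not tested.

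The 48 genes together made up 5786 ± 128 CPM at T0 (SD, n = 3), 4429 ± 73.5 in T7-RA and 2277 ± 48.8 in T14-RA, so that 76.5% of the T0 level was present on day 7 and 39.4% on day 14. With RA the sums were 4022 ± 48.9 CPM on day 7 and 1816 ± 136 CPM on day 14, or 69.5% and 31.4% of T0. The sums of the 5 groups did not overlap, since the lowest T14-RA culture (2221 CPM) lay above the highest T14+RA culture (1954 CPM). The median gene gave the same order, with log2 CPM of 6.60 ± 0.13 at T0, 6.31 ± 0.03 in T7-RA, 6.15 ± 0.06 in T7+RA, 5.33 ± 0.16 in T14-RA and 4.95 ± 0.12 in T14+RA (SD, n = 3). The plot of the levels per culture shows both measures.

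**Figure D1:**
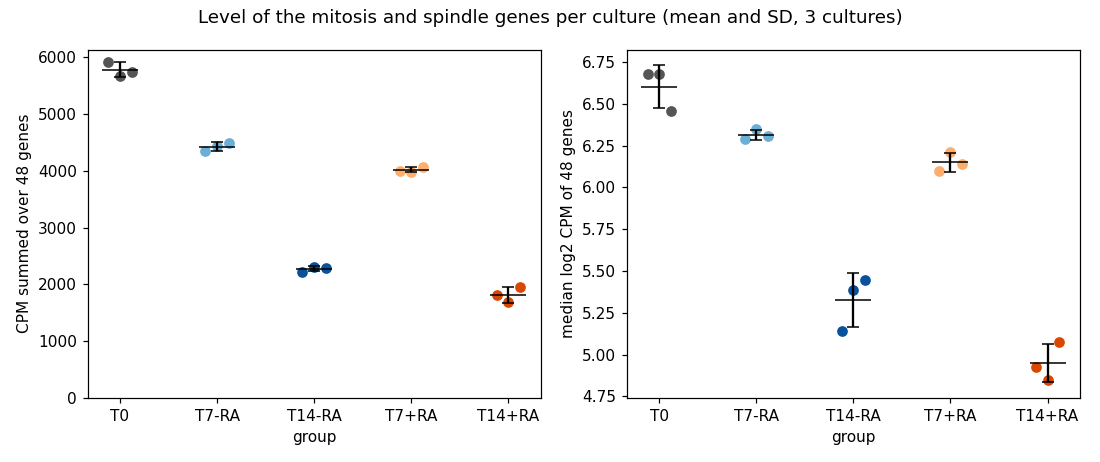
CPM summed over the 48 genes (left) and their median log2 CPM (right, axis not starting at 0) in each culture, with points for cultures and bars for the group mean and SD of 3 cultures. The sums lie between 5679 and 5928 CPM at T0, and on day 14 between 2221 and 2311 CPM without RA and between 1683 and 1954 CPM with RA.

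In the additive model of the study's methods, with terms for day 7, day 14 and RA, 8 of the 48 genes fell with the day 7 term and 39 with the day 14 term, none rose with either, and none was called for the RA term. Without T0 replicate 1 or T7-RA replicate 3 the 8 became 3, and without T0 replicate 3 or T7-RA replicate 1 they became 4. Among all genes the share that fell was 4.44% for the day 7 term, 8.85% for the day 14 term and 3.07% for the RA term. The median log2 change of the 48 genes was -0.24, -1.32 and -0.21 for the 3 terms, against 0.02, 0.05 and -0.01 over all genes. Since that model assumes the same RA change on both days, the comparisons between groups are given next.

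Without RA, day 14 against day 0 showed the whole decline. Of the 48 genes 35 fell and none rose, whereas 7.84% of all genes fell, and the median log2 change was -1.32 against 0.04 over all genes. All 48 estimates were below 0, from -2.27 to -0.17. In 41 of the 48 genes each T14-RA culture lay below each T0 culture, against 19.1% of all genes. The map of the 48 genes over the 15 cultures shows the blue of day 14 in nearly every row.

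**Figure D2:**
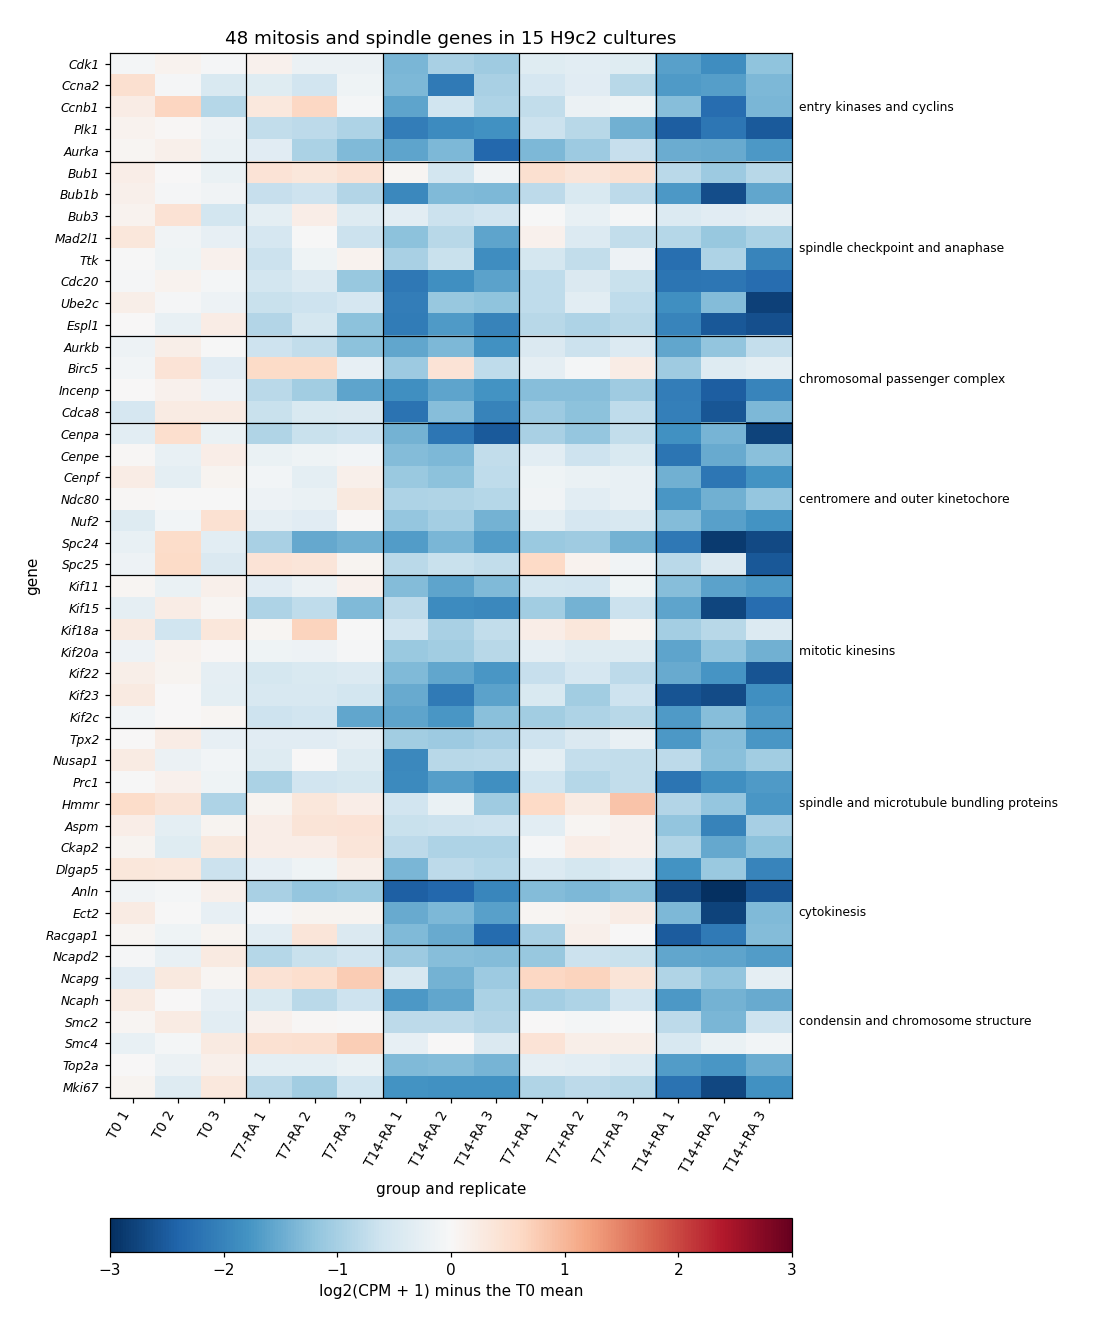
Each row is a gene, ordered by role (names at the right), and each column a culture. Colour gives log2(CPM + 1) minus the T0 mean of that gene (blue lower, red higher). The T14-RA and T14+RA columns are blue for most genes, while the T7-RA and T7+RA columns mix blue rows such as Anln and Incenp with pale red rows such as Ncapg.

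Among the kinases and cyclins of mitotic entry, 4 of 5 fell between T0 and T14-RA. Plk1 (ENSRNOG00000018815), the polo-like kinase needed for spindle formation and centrosome maturation, had 195, 186 and 161 CPM at T0, 107, 105 and 94.4 in T7-RA and 42.0, 47.8 and 50.8 in T14-RA. The 3 groups did not overlap, and the log2 change over both weeks was -1.97 ± 0.18 (SE, edgeR adjusted p = 5.62e-14). Cdk1, the kinase that starts mitosis, had the most counts of this role and the highest level per transcript length of the 48 genes at T0, 105 CPM per kilobase. It had 135, 150.1 and 136 CPM at T0, 154, 125 and 123 in T7-RA and 54.1, 70.8 and 66.0 in T14-RA, so days 0 and 7 overlapped and day 14 lay below both. Its log2 change to day 14 was -1.16 ± 0.18 (SE, edgeR adjusted p = 1.67e-07). Ccna2, cyclin A2, and Aurka, the centrosomal Aurora kinase, fell by 1.51 and 1.75 on the log2 scale. Ccnb1, cyclin B1, had a log2 change of -1.20 ± 0.34 (SE, edgeR adjusted p = 0.00911), and its T0 cultures were far apart, at 93.8, 128 and 44.0 CPM.

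Of the 8 genes of the spindle checkpoint and of anaphase onset, 4 fell. Cdc20 (ENSRNOG00000028415), which activates the anaphase promoting complex, went from 108, 118 and 105 CPM at T0 to 24.0, 30.1 and 35.6 in T14-RA, and Espl1, separase, from 153, 129 and 178 to 34.8, 46.0 and 37.3 CPM. In neither gene did the groups overlap, with log2 changes of -1.90 ± 0.22 and -1.97 ± 0.20 (SE, edgeR adjusted p = 1.19e-10 and 1.57e-12). Bub1b, which encodes the checkpoint protein BubR1, and Ube2c, the ubiquitin-conjugating enzyme of the anaphase promoting complex, fell by 1.59 and 1.54 on the log2 scale. The checkpoint genes Mad2l1 and Ttk had log2 changes of -1.30 and -1.10 that missed the threshold (edgeR adjusted p = 0.00215 and 0.00378). Bub3 and Bub1, whose products act together at the kinetochore, changed least in this role, with log2 changes of -0.57 ± 0.18 and -0.17 ± 0.21 (SE, edgeR adjusted p = 0.00979 and 0.563). Bub3, the gene of this role with the most counts, had 143, 180.1 and 90.1 CPM at T0 and 106, 85.0 and 88.1 in T14-RA, so its groups overlapped.

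Of the chromosomal passenger complex, which corrects faulty attachments and then moves to the midzone, 3 of 4 genes fell. Incenp, its scaffold, had 235, 253 and 208 CPM at T0, 131, 112 and 77.0 in T7-RA and 63.7, 76.2 and 66.0 in T14-RA. Most of this decline was present by day 7, and the log2 change over both weeks was -1.77 ± 0.17 (SE, edgeR adjusted p = 5.52e-14). Cdca8, borealin, had 49.7, 84.4 and 83.8 CPM at T0, 44.1, 51.1 and 52.3 in T7-RA and 14.4, 28.3 and 16.9 in T14-RA, where day 7 overlapped day 0 and day 14 lay below both, a log2 change of -1.87 ± 0.29 to day 14 (SE, edgeR adjusted p = 2.06e-07). Aurkb, the kinase of the complex, fell by 1.58 on the log2 scale. Birc5, survivin, had a log2 change of -0.45 ± 0.35 (SE, edgeR adjusted p = 0.341), with 27.6, 39.4 and 23.1 CPM at T0 and 13.2, 39.0 and 16.9 in T14-RA. Its groups overlapped.

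At the centromere and outer kinetochore 6 of 7 genes fell. Cenpa, the histone H3 variant that marks centromeres, went from 34.5, 61.9 and 37.7 CPM at T0 to 15.6, 8.86 and 6.77 in T14-RA without overlap, a log2 change of -1.99 ± 0.35 (SE, edgeR adjusted p = 5.08e-06). Cenpf, a large kinetochore protein and the gene of this role with the most counts, went from 251, 174 and 226 to 98.5, 90.3 and 127 CPM, a log2 change of -1.06. Cenpe, the kinetochore kinesin, had a log2 change of -1.14. The 4 subunits of the NDC80 complex, which binds microtubules, had log2 changes of -0.92 for Ndc80, -1.21 for Nuf2, -1.71 for Spc24 and -0.84 for Spc25, the first 3 of which passed the threshold.

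Among the mitotic kinesins 6 of 7 genes fell, with Kif18a as the exception (log2 change -0.85 ± 0.45, edgeR adjusted p = 0.145 and 138 counts in all). Kif23, the midzone motor MKLP1, fell by 1.77 on the log2 scale and Kif22, which moves chromosome arms, by 1.56. Kif2c, which depolymerizes microtubules, fell by 1.55, Kif11, the motor that separates the poles, by 1.40 and Kif15, which also keeps the poles apart, by 1.38. Kif23 had 153, 128 and 103 CPM at T0, 90.7, 90.0 and 85.7 in T7-RA and 43.2, 28.3 and 40.6 in T14-RA, with the 3 groups apart, and Kif11 had 152, 126 and 161 CPM at T0, 115, 128 and 159.8 in T7-RA and 58.9, 47.8 and 57.6 in T14-RA, with day 14 alone apart. Kif20a, which carries the passenger complex to the midzone, had 148, 178 and 169.8 CPM at T0, 150.3, 148 and 161 in T7-RA and 75.7, 79.7 and 91.4 in T14-RA. Days 0 and 7 overlapped and day 14 lay below both, where 49.8% of the T0 mean was left (edgeR adjusted p = 3.97e-07).

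Of 7 spindle and microtubule-bundling genes 4 fell. Prc1, which bundles antiparallel microtubules in the midzone, had 261, 289 and 239 CPM at T0, 136, 176 and 183 in T7-RA and 68.5, 83.2 and 72.8 in T14-RA. The 3 groups were fully apart, and the log2 change to day 14 was -1.82 ± 0.15 (SE, edgeR adjusted p = 1.15e-15). Nusap1, Dlgap5 and Tpx2, which stabilize or nucleate spindle microtubules, fell by 1.24, 1.13 and 1.06 on the log2 scale. Ckap2, a microtubule-associated protein of the spindle, had 69.0, 50.7 and 79.7 CPM at T0, 75.2, 75.3 and 84.2 in T7-RA and 37.2, 33.7 and 33.9 in T14-RA, so that only day 14 stood below the others. Ckap2, Hmmr and Aspm missed the threshold, with log2 changes of -0.91, -0.79 and -0.67 (edgeR adjusted p = 0.00125, 0.0479 and 0.00155).

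All 3 cytokinesis genes fell. Anln (ENSRNOG00000014343), anillin, the scaffold of the contractile ring, had 247, 257 and 298 CPM at T0, 136, 118 and 123 in T7-RA and 48.05, 51.4 and 67.7 in T14-RA. Its 3 groups were widely separated, and its log2 change of -2.27 ± 0.16 was the largest of the 48 genes (SE, edgeR adjusted p = 6.2e-19), leaving 20.8% of the T0 level. An anillin-like gene elsewhere in the genome, AABR07028352.1, had a log2 change of -1.55, and how reads of the pair were divided was not tested. Racgap1 and Ect2, which act in the RhoA pathway at the cell equator, fell by 1.68 and 1.57.

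Of 7 genes of condensin and chromosome structure 5 fell. Mki67, the proliferation marker Ki-67 that coats mitotic chromosomes, had the most counts of the 48 genes, with 746, 537 and 869.9 CPM at T0, 402, 341 and 462 in T7-RA and 203, 198 and 198 in T14-RA. The T14-RA cultures agree closely and lie far below the others, with a log2 change of -1.84 ± 0.17 (SE, edgeR adjusted p = 4.43e-09). Top2a, the topoisomerase that untangles chromatids, and the condensin I subunits Ncaph and Ncapd2 had log2 changes of -1.35, -1.45 and -1.22. Top2a had 310.4, 272 and 342 CPM at T0, 249.3, 248.6 and 266 in T7-RA and 121, 124 and 117 in T14-RA, and Ncapd2 had 189, 165 and 235 CPM at T0, 106, 121 and 129 in T7-RA and 91.3, 79.7 and 77.9 in T14-RA, and in both genes the 3 groups were apart. The condensin core gene Smc2, with 124, 143 and 96.4 CPM at T0, 130.0, 122 and 118 in T7-RA and 68.5, 69.1 and 64.3 in T14-RA, overlapped between days 0 and 7 and fell by 0.85 by day 14, whereas its partner Smc4 had a log2 change of -0.21 ± 0.17 (SE, edgeR adjusted p = 0.367) and Ncapg one of -0.90 ± 0.29 (adjusted p = 0.0104).

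The 13 genes that missed the threshold had fewer counts (median 463 over the 15 libraries) than the 35 that passed (median 643). The counts overlapped, from 138 to 1262 in those missed and from 131 to 3679 in those called, and the median log2 change also differed, at -0.84 against -1.55. A gene missed here need not be unchanged.

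In the first week alone few of the genes passed the threshold of 0.001, but the shift was broader than that count. At an edgeR adjusted p under 0.05, 18 of 48 genes were lower and 1 higher in T7-RA than at T0. At an unadjusted p under 0.05, 23 were lower and 2 higher. Between T0 and T7-RA 7 of 48 fell (Anln, Incenp, Plk1, Prc1, Ncapd2, Espl1 and Mki67) and none rose, against 4.54% of all genes that fell. Of these, Anln and Incenp fell most, by 1.07 and 1.11 on the log2 scale (edgeR adjusted p = 4.17e-09 and 1.85e-08). Espl1, Mki67, Plk1, Ncapd2 and Prc1 fell by 0.86, 0.84, 0.83, 0.72 and 0.68. The median log2 change of the 48 genes was -0.28, with 37 estimates below 0 and 11 above it, and in 21 genes each T7-RA culture lay below each T0 culture, against 15.8% of all genes. In 4 genes every T7-RA culture lay above every T0 culture, against 17.5% of all genes. The largest estimates above 0 were those of the condensin genes Ncapg and Smc4. Ncapg had 34.5, 54.4 and 46.1 CPM at T0 and 59.6, 63.2 and 75.5 in T7-RA, a log2 change of 0.58 ± 0.23 (SE, edgeR adjusted p = 0.0633), and Smc4 had 97.9, 111 and 138 and 159, 159.9 and 192 CPM, a change of 0.57 ± 0.15 (adjusted p = 0.00344). In both genes all 3 cultures of day 7 lay above all 3 of day 0, and neither passed the threshold. Without T7-RA replicate 1 the number that fell was 3.

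The second week without RA lowered far more of them. Between T7-RA and T14-RA 22 of 48 genes fell and none rose, against 1.09% of all genes that fell, and all 48 estimates were below 0, with a median of -0.97 against 0.00 over all genes. In 43 genes the T14-RA cultures lay wholly below the T7-RA cultures, against 12.5% of all genes. The count rested in part on 1 library, since 11 genes fell when T14-RA replicate 1 was left out. The largest changes among the genes that fell were those of Ect2 and Ncapg. Ect2 stayed at 58.5, 63.2 and 63.9 CPM in T7-RA, within the spread of the T0 values of 71.7, 60.04 and 50.3 CPM, and was at 20.4, 23.0 and 18.6 CPM in T14-RA, a log2 change of -1.57 ± 0.26 (SE, edgeR adjusted p = 6.93e-06). Ncapg went from its day 7 values to 31.2, 15.9 and 20.3 CPM, a log2 change of -1.48 ± 0.25 (SE, edgeR adjusted p = 1.52e-05). Both dropped out of the T7-RA range entirely. Cdca8, Kif11, Cdc20, Kif23, Anln and Ckap2 followed, with log2 changes of -1.34 ± 0.29, -1.27 ± 0.18, -1.24 ± 0.23, -1.22 ± 0.22, -1.19 ± 0.17 and -1.15 ± 0.22 (SE).

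The contrast of the weeks was itself tested, in a comparison added after both weeks had been seen. In 11 of 48 genes the second-week change lay below the first-week change at an adjusted p under 0.05, and in none above it, against 3.25% of all genes with a difference in that direction. These were Ncapg, Ect2, Ckap2, Smc4, Aspm, Kif11, Cdk1, Smc2, Cenpf, Kif20a and Top2a. For Aspm, which focuses spindle poles, the CPM were 156, 111 and 145 at T0, 156, 177 and 180.1 in T7-RA and 85.3, 86.8 and 88.1 in T14-RA. Every day 7 culture lay above the highest day 0 culture, the lowest of them only just, and day 14 lay below both. Its second-week minus first-week change was -1.28 ± 0.27 on the log2 scale (SE, edgeR adjusted p = 0.000745). The cell cycle homology region occurred in all 6 of the first-week genes that had a promoter window and in 9 of the 11, and the CCAAT box in 5 of 6 and 11 of 11. Without T7-RA replicate 3 the 11 became 4.

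**Figure D3:**
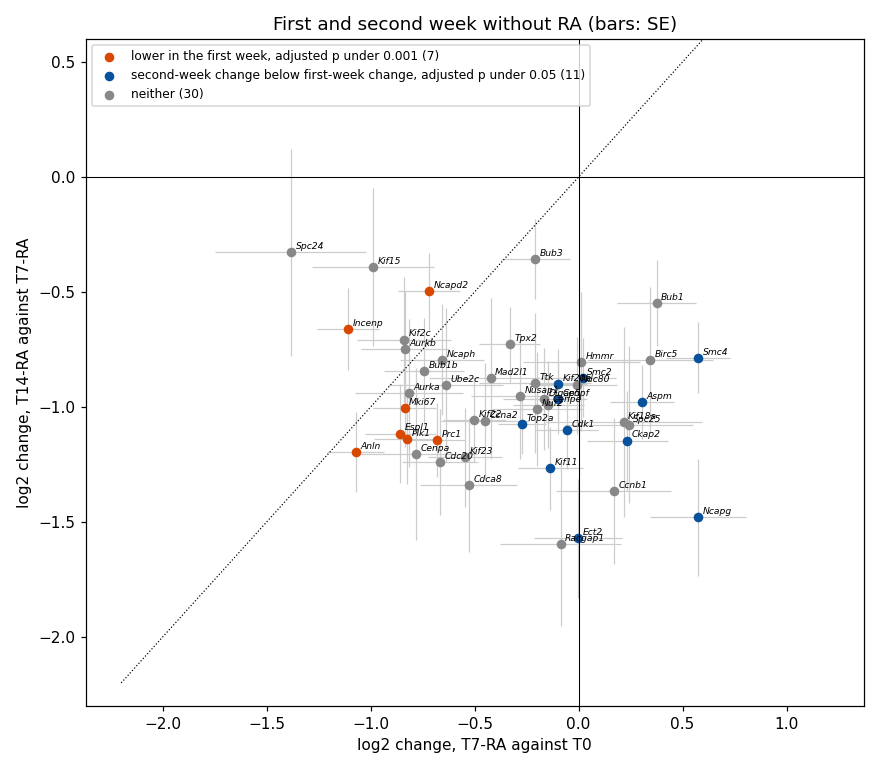
Log2 change of each of the 48 genes in the first week (horizontal) and the second week (vertical) without RA, with SE bars and a dotted line of equal change. The weeks share the T7-RA cultures, so the slope of the cloud is not a result. All points lie below 0 on the vertical axis, while 11 lie above 0 on the horizontal axis.

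With RA, too, the decline was broad in the second week. Between T7+RA and T14+RA 28 of 48 genes fell and none rose, against 2.26% of all genes that fell, with a median log2 change of -1.23 against 0.01 over all genes. In all 48 genes each T14+RA culture lay below each T7+RA culture, against 13.6% of all genes. The largest changes among the genes that fell were those of Racgap1, Ect2, Hmmr, Kif23, Cdc20, Anln, Cenpf and Plk1, from -1.89 to -1.48. Racgap1 had 18.5, 41.6 and 37.7 CPM in T7+RA and 5.79, 7.86 and 14.5 in T14+RA, a log2 change of -1.89 ± 0.38 (SE, edgeR adjusted p = 0.000164). Hmmr, a spindle-assembly factor that binds hyaluronan, had 49.9, 38.9 and 59.99 CPM in T7+RA and 17.4, 14.14 and 9.06 in T14+RA, a log2 change of -1.77 ± 0.31 (SE, edgeR adjusted p = 1.64e-05). Cenpf went from 195, 187 and 185 to 79.1, 47.1 and 61.6 CPM, a log2 change of -1.54 ± 0.17 (SE, edgeR adjusted p = 9.54e-11). The day 14 cultures of Hmmr and Cenpf were well clear of day 7, and those of Racgap1 lay closer to it. The 2 second-week comparisons share no culture, and 20 genes fell in both, which is 90.9% of the 22 without RA and 71.4% of the 28 with RA. Across the 48 genes the 2 sets of changes had a Pearson r of 0.49 and a Spearman rho of 0.47, as a description over genes that share libraries and depth. Bub3 was the least changed of the 48 with RA (-0.25) and among the least without it (-0.36).

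**Figure D4:**
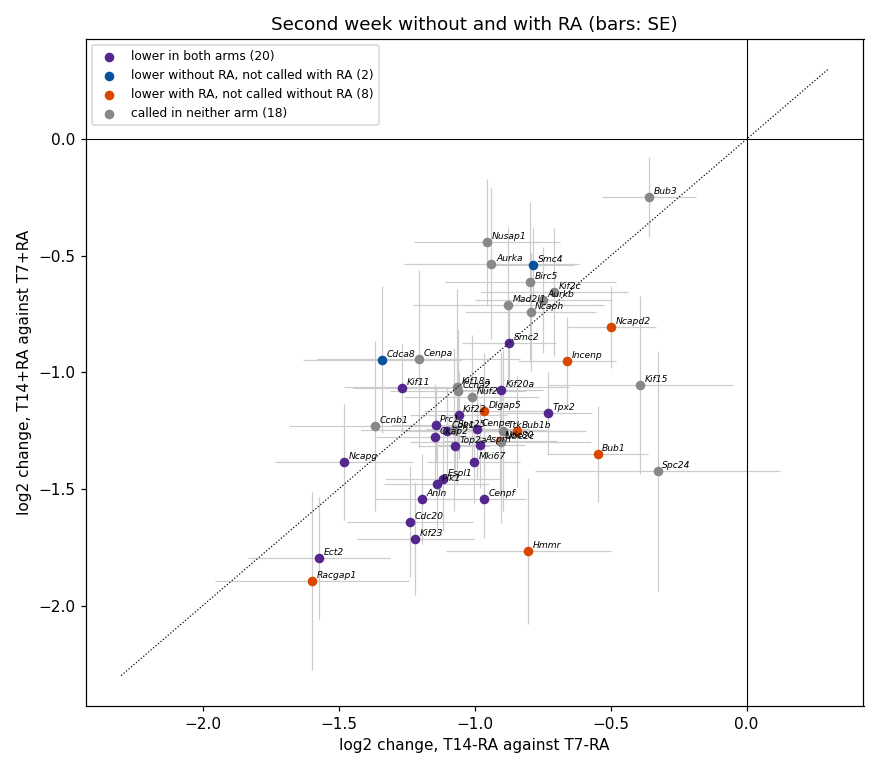
Log2 change of each of the 48 genes in the second week without RA (horizontal) and with RA (vertical), with SE bars and a dotted line of equal change. All 48 points lie below 0 on both axes, and 20 genes fell in both arms.

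None of the 48 genes was called for RA on either day. On day 7 (T7+RA against T7-RA) the median log2 change was -0.12 and no gene passed an adjusted p of 0.001, where 1.3% of all genes fell, or of 0.05, where 3.28% were lower. At an unadjusted p under 0.05, 4 genes were lower and none higher in edgeR, against 8.58% of all genes lower, and 4 by limma-voom, 1 by DESeq2 and 8 with scaling by library size only. In 9 genes each T7+RA culture lay below each T7-RA culture, against 12.6% of all genes.

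On day 14 (T14+RA against T14-RA) the estimates were lower, with a median log2 change of -0.35 against 0.00 over all genes and 41 of 48 below 0. No gene passed an adjusted p of 0.001, where 2.35% of all genes fell. At an adjusted p under 0.05, 4 genes (8.33%) were lower, a share near the 5.74% of all genes. At an unadjusted p under 0.05, 15 (31.25%) were lower and none higher, against 11.3% of all genes lower. DESeq2 gave 9 genes at an unadjusted p under 0.05 and 2 at an adjusted p under 0.05, and limma-voom 14 and 4. In 14 genes the T14+RA cultures lay wholly below the T14-RA cultures, against 13.9% of all genes. The 4 genes were Cenpf, Aspm, Bub1 and Tpx2. Cenpf had 98.5, 90.3 and 127 CPM without RA and 79.1, 47.1 and 61.6 with RA, a log2 change of -0.69 ± 0.19 (SE, edgeR adjusted p = 0.00635). Aspm had 85.3, 86.8 and 88.1 CPM without RA and 58.8, 33.0 and 67.1 with RA, a log2 change of -0.70 ± 0.20 (SE, edgeR adjusted p = 0.011). The 2 arms did not overlap in either gene, though the RA cultures were spread out. Bub1 had 68.5, 44.3 and 61.0 CPM without RA and 36.7, 29.9 and 36.3 with RA, a log2 change of -0.77 ± 0.22 (adjusted p = 0.0127, edgeR), and Tpx2 had 80.5, 77.9 and 83.0 without and 49.2, 67.6 and 48.9 with RA, a change of -0.56 (adjusted p = 0.0436, edgeR). Bub1, whose T0 and T14-RA cultures overlapped, was lowest in T14+RA. At the other end, the passenger kinase Aurkb had the highest estimate, 0.40 ± 0.27 (SE, edgeR adjusted p = 0.43), with 28.8, 33.7 and 23.7 CPM without RA and 28.9, 37.7 and 52.6 with RA, groups that overlapped. The RA term of the additive model had 11 genes lower and 1 higher at an unadjusted p under 0.05, against 12.7% of all genes lower, 11 and 1 by limma-voom and 9 and 0 by DESeq2. Its lowest adjusted p was 0.00287, for Aspm.

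For none of the 48 genes did a difference in RA change between the days pass an adjusted p of 0.05, where 0.458% of all genes had a lower change on day 14. In edgeR 3 genes had a lower change at an unadjusted p under 0.05, where 4.31% of all genes did, against 2 by DESeq2 and 2 by limma-voom. The median difference was -0.19. In the same cultures, 4 of the 7 myotube markers fell with RA on day 14, among them Myh3 and Mymk, by 1.43 and 2.28 on the log2 scale. The part of this shift in the RA values of the mitotic genes was not tested.

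**Figure D5:**
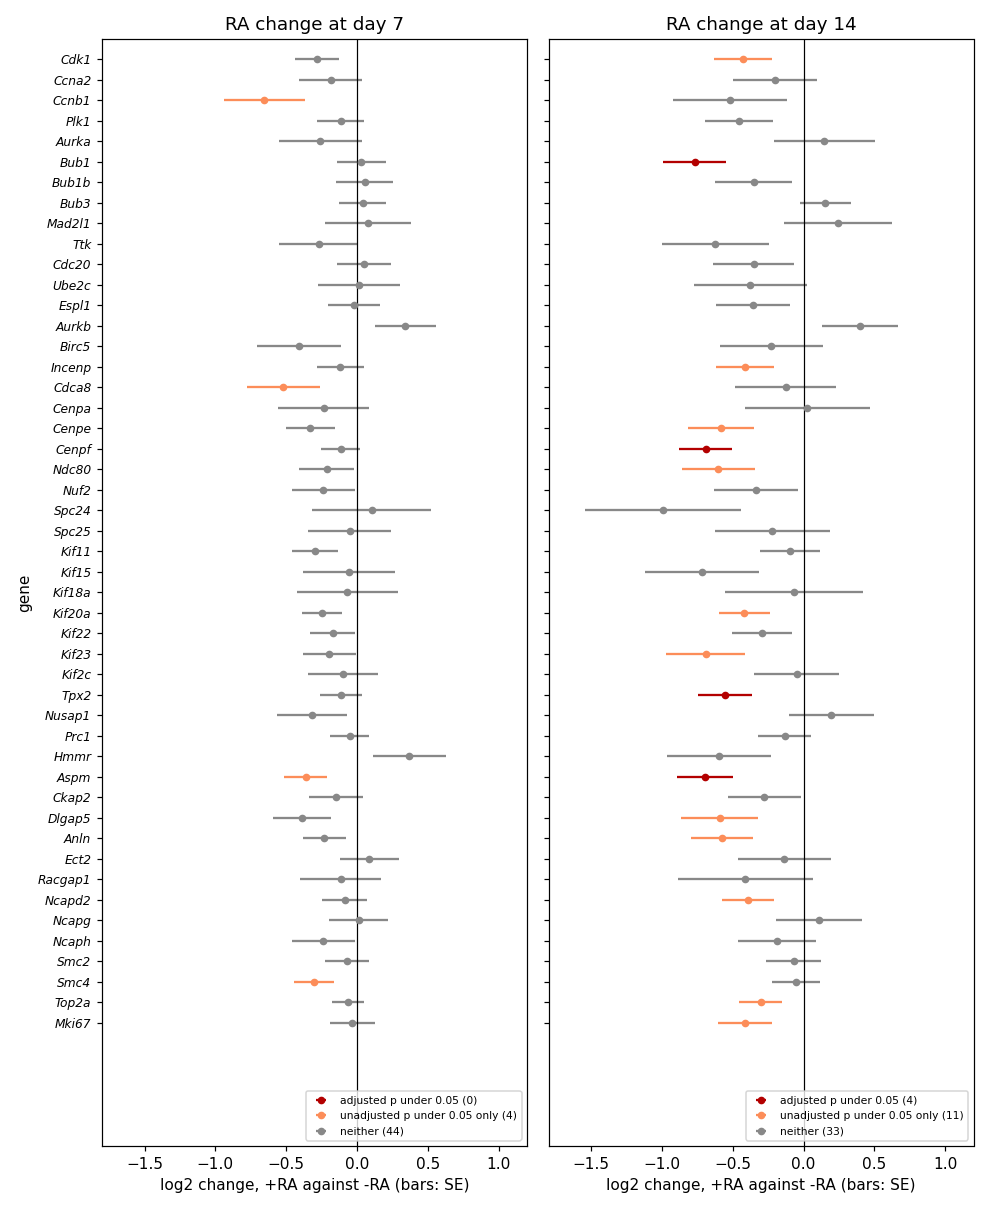
Log2 change with RA on day 7 (left) and day 14 (right) of each of the 48 genes, with SE bars and genes ordered by role. On day 14 the 4 dark red genes, Bub1, Cenpf, Tpx2 and Aspm, were lower at an adjusted p under 0.05, and on day 7 no gene was. These 4 are 8.33% of the 48, near the 5.74% of all genes.

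Other genes of the same machinery, taken from fixed lists, were read from the same test of T14-RA against T0, in which 7.84% of all genes fell. Of 14 further kinesin and cytokinesis genes 9 fell and none rose, with Kif18b, Plk4 and Kifc1 lowest at -2.01, -1.88 and -1.84 on the log2 scale. Of 36 further kinetochore and checkpoint genes 8 fell and 1 rose, the centromere loading factors Mis18a and Hjurp reaching -2.78 and -2.44. Of 12 regulators of mitotic entry 5 fell, among them Pkmyt1, an inhibitory kinase of Cdk1 (-2.65), and Ccnf, cyclin F (-2.05). Of 26 spindle assembly and centrosome entries 9 fell and 1 rose, with Stil at -1.85 and Spag5 at -1.88 for the more abundant of the 2 identifiers that carry that symbol (ENSRNOG00000011777). The anaphase promoting complex, which also serves cells out of the cycle, had 3 that fell and 2 that rose among 16, with Ube2s at -1.49 and Cdc27 at 1.01. Cohesin and condensin II genes gave 5 that fell and 1 that rose of 17, among them Cdca5, sororin, and Ncapd3, at -2.27 and -1.71. Of 21 transcription factor genes tied to the mitotic programme 4 fell, namely Rbl1 (-3.24), E2f7 (-2.67), Mybl2 (-2.31) and Foxm1 (-1.59). With RA on day 14 these lists held 2 calls in all, E2f2 (-1.75) and Rock2 (0.68), the latter higher with RA, where 2.35% of all genes fell and 2.46% rose.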

How the data were processed

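RNA-seq of 15 H9c2 cultures in 5 groups of 3, as their labels give them, was analysed. The authors used HISAT2 to align trimmed reads to the rat genome and featureCounts to count reads over genes. The values they deposited are raw counts, not normalized, and limited to genes whose sum over all libraries exceeded 20 (the smallest sum was 21). The submitters' processing notes name Rnor_6.0, and the annotation release and strand setting are not given in the sources used here, so reads of overlapping genes may be shared. The deposited symbols, identifiers and cytogenetic bands were used, and the promoters come from RefSeq on GRCr8, a different build that lends no coordinates to the counts.

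The counts were fitted over all 11574 genes with edgeR 4.0.16 (R 4.3.3, TMM, robust quasi-likelihood F test, Benjamini-Hochberg adjustment), as 5 group means and as an additive model of T7, T14 and RA terms. The threshold was an adjusted p of 0.001, the one in the study's methods, and 0.05 for differences of changes. Log2 CPM used a prior count of 2. The test was checked on simulated data. Alternatives were limma-voom and limma-trend (limma 3.58.1), DESeq2 1.42.0, other scaling, filters and thresholds, a replicate block and leaving out each library. Intervals cover the spread between 3 cultures, whose separate origin rests on the study's description. The gene list, the pathway and marker lists and the tests were chosen with earlier results of these data known. Genes given with the CPM of each culture were the called genes of each comparison, or the 8 largest non-overlapping changes where more were called, plus the gene with the most counts in each role, and a gene named in several comparisons may have only its log2 change in some. Aurkb, Aspm, Hmmr, Ccnb1, Ncapg, Smc4, Bub1 and Birc5 were added after their values were seen where the rule did not name them. Within groups, the closest 2 replicate libraries had a chi-square per gene of 1.07, just above the level of sampling noise alone. Libraries of different groups were not compared in this way.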

Additional observations from a re-analysis of the deposited data

Results flagged for a closer look

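In 11 genes the change of the second week without RA differed from that of the first week by the test of the difference itself, in a comparison added after the weeks were seen. The second-week minus first-week change, on the log2 scale, was -2.06 for Ncapg, -1.57 for Ect2, -1.38 for Ckap2, -1.36 for Smc4, -1.28 for Aspm and -1.13 for Kif11. It was -1.04 for Cdk1, -0.89 for Smc2, -0.87 for Cenpf and -0.80 for both Kif20a and Top2a. Of the related genes outside the 48, the citron kinase gene Cit had an RA change on day 14 that lay -0.84 from that on day 7 (edgeR adjusted p = 0.0227). Its log2 change with RA was 0.43 on day 7 and -0.41 on day 14 (edgeR adjusted p = 0.0287 and 0.0823). Among all genes 0.458% had a lower RA change on day 14 at an adjusted p under 0.05.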

How the results depend on the processing

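Counts of genes that fell or rose are given out of 48. At an adjusted p of 0.05 in place of 0.001, 18 fell and 2 rose with the day 7 term, 3 fell with the RA term, 18 fell and 1 rose in the first week, 35 fell in the second week without RA and 4 were lower with RA on day 14. At 0.001 in place of 0.05, the difference between weeks held in 3. With limma-trend the day 7 term gave 3, the first week 3 and the difference between weeks 6. DESeq2 gave 5 for the day 7 term. Scaling by library size only gave 4 for the day 7 term and 1 that rose in the first week, and put the median of all genes at 0.13 in place of 0.02 (T7-RA against T0) and 0.14 in place of 0.04 (T14-RA against T0). The T7-RA median level became 6.27 log2 CPM with a prior count of 0.5 and 6.35 with library size only. Leaving out each library in turn gave 3 to 8 for the day 7 term (3 without T0 replicate 1 or T7-RA replicate 3, 4 without T0 replicate 3 or T7-RA replicate 1), 3 to 7 that fell and 0 to 1 that rose in the first week, 11 to 25 in the second week and 4 to 12 for the difference between weeks (7 without T7-RA replicate 1 or T14-RA replicate 1). Of the genes that fell, 26 of 35 for T14-RA against T0, 10 of 22 and 18 of 28 for the second week without and with RA, 2 of 7 for the first week and 2 of 8 for the day 7 term did so whichever library was left out, as did 3 of the 11 for the difference between weeks. No gene that fell changed sign in any setting. A replicate block gave 38 for T14-RA against T0, 25 and 28 for the second weeks and 7 for the first week. At 0.001 the block moved no count by over 1.5 times, while at 0.05 the RA term had 6 genes lower with the block, 6 with limma-trend and 7 with library size only, in place of 3. Deviations from the group means correlated at -0.05 to 0.27 between cultures of the same number (mean 0.05), against a mean of -0.03 for different numbers, and 10 of 15 cultures correlated best with their own number, a hint of pairing from the data. The labels tie no number to a shared day or batch and not every correlation was positive, so the values in the text have no block. With 131 to 3679 counts a gene over the 15 libraries, depth limits the precision of single changes.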

Other observations

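Outside the 48 genes and the lists above, the 5 genes whose log2 CPM followed the median of the 48 most closely over the 15 cultures, among 6259 genes with a mean of at least 20 counts, were Rrm1, Rrm2, Abca9, Gask1b and Ezh2, with Pearson r from 0.98 to 0.96. Rrm1 and Rrm2 encode the subunits of ribonucleotide reductase and Ezh2 a histone methyltransferase. Rrm2 had mean CPM of 152 at T0, 43.3 in T14-RA and 32.4 in T14+RA, and Gask1b 401, 236 and 163. These correlations describe cultures in 5 groups and carry no test. Within the 48 genes, the correlation of each with the median of all of them over the cultures ran from 0.56 to 0.98, with a median of 0.89, and 36 were above 0.8. A cyclin B2-like pseudogene, AABR07000658.2, had mean CPM of 28.3 at T0, 15.8 in T14-RA and 13.8 in T14+RA.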
